A study of Mus musculus with 4 samples.

Results

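The genes described here encode the proteins of the mitochondrial ribosome. They were taken as the loci whose RefSeq identifiers map to a single symbol that begins with Mrpl (large subunit) or Mrps (small subunit) followed by a number, with a mean of at least 1 FPKM (fragments scaled to transcript length and library depth) over the 4 libraries. This gave 75 genes, 47 Mrpl and 28 Mrps, out of 23697 loci. RNA was measured in WW6 cells, a mouse embryonic stem cell line of mixed C57/B6J, 129/Sv and SJL background grown without feeder cells in serum and leukemia inhibitory factor. The knockdown group, 2 libraries called A and B, was transiently transfected with small interfering RNA (siRNA) against Kdm5b, a demethylase of lysine 4 of histone H3, and the control group, also 2 libraries called A and B, with siRNA against GFP, which its treatment label names a mock construct. All 4 libraries thus share the transfection, and the time from transfection to harvest is not given in the sources used here. The labels do not tell whether A and B are independent cultures; p-values therefore describe the scatter of these 4 libraries, possibly only technical.

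Mitochondria keep their own ribosome, which translates the few proteins encoded by mitochondrial DNA, core subunits of the respiratory chain and of ATP synthase. Its RNAs are transcribed inside the organelle, while all of its proteins are encoded in the nucleus, made in the cytosol and imported. Several of these proteins descend from bacterial ribosomal proteins and others are particular to mitochondria. The symbols follow an older naming: in structures of the mammalian ribosome the products of Mrps30 and Mrps18a sit in the large subunit, and the product of Mrps36 has been reassigned to the 2-oxoglutarate dehydrogenase complex. The groups below follow the symbols as they stand.

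Kdm5b stood at 22.7 FPKM in knockdown A and 31.1 FPKM in knockdown B, against 99.7 and 145 FPKM in control A and B. Its limma log2 fold change on the log2(FPKM + 1) scale was -2.14 (standard error 0.30, limma unadjusted p = 0.000334, adjusted p = 0.562), so the targeted gene was lower in both knockdown libraries without passing the threshold of 0.05. Knockdown A stood apart from the other libraries: it listed 11953 loci at 0, where knockdown B listed 8609 and the controls 8131 and 8281, and its steps between low values put its depth at 74.6% of that of control A. FPKM tables carry no totals, but these steps put knockdown B at 96.2% and control B at 97.6% of control A, the deepest. At that depth the typical gene of the set was covered by about 219 and 237 fragments in knockdown A and B and by 209 and 262 fragments in control A and B (medians over the 70 genes with a usable transcript length). All 12 stem cell markers were detected. Their summed FPKM was 4881 and 4139 in knockdown A and B and 3821 and 4575 in control A and B. Of the 12, 6 had a limma log2 fold change above 0 and 6 below. In Klf4 and Esrrb both knockdown libraries lay below both controls (log2 fold changes -0.84 and -0.44). That is 16.7% of the 12, near the 16.9% of tested loci. In 0 of the 12 both knockdown libraries lay above both controls, against 15.0% of tested loci. Of 10 fibroblast markers Lum stood at 0 in all 4 libraries, the collagens Col1a1, Col1a2 and Col3a1 did not exceed 0.38 FPKM in any, and Vim made up most of the sum of 145 and 96.2 FPKM in knockdown A and B and 80.3 and 123 FPKM in control A and B. Among the 4 fibroblast markers averaging at least 1 FPKM, Vim overlapped between groups. Thy1 and Acta2 had both knockdown libraries below both controls, and Pdgfrb had both above. The means of Thy1, Acta2 and Pdgfrb were low, at 1.06, 2.19 and 1.49 FPKM. The 8 endoderm markers summed to 2.59 and 2.98 FPKM in knockdown A and B and to 11.2 and 15.8 FPKM in control A and B. Of the 4 with a mean of at least 1 FPKM, 3 had both knockdown libraries below both controls (75.0%, against 16.9% of tested loci). The other, Gata6, made up most of the sum in knockdown A, at 2.32 FPKM. It stood at 0.08 FPKM in knockdown B and at 1.81 and 2.09 FPKM in control A and B. The part of these markers in the results below was not tested, and in bulk RNA fewer cells of a type and less RNA per cell cannot be told apart.

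The 75 genes are scattered over 17 chromosomes, with 11 on chromosome 11, 8 on chromosome 17 and 0 on the sex chromosomes. A common feature of their position is a close neighbour transcribed the other way. Of the 75 genes, 27 (36.0%) had a locus on the opposite strand whose start lay within 1000 bases of their own, against 14.3% of the tested loci with a known strand. The distance was at most 400 bases for 23 of the 27, with a median of 136 bases. Several of these neighbours also act in mitochondria: Mrps12, a protein of the decoding centre, lies 186 bases from Sars2, the mitochondrial seryl-tRNA synthetase, Mrpl43 lies 115 bases from Twnk, the helicase of mitochondrial DNA replication, and Mrpl47 lies 307 bases from Ndufb5, a subunit of respiratory complex I. In 1 case both neighbours belong to the set: the loci of Mrpl46 (mm9 chr7:85920226-85927975) and Mrps11 (mm9 chr7:85928016-85937874) lie 41 bases apart and head away from each other.

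The promoter windows below are RefSeq's for the GRCm38.p6 build, from 250 bases before to 50 after each start, 5′ to 3′ on the strand of the gene; of the 75 genes, 66 had a window, 72 windows in all. They show the shared start of Mrps11 (chr7:78782881-78783180, plus strand) and Mrpl46 (chr7:78783040-78783339, minus strand), whose windows overlap, and the starts of the 2 genes with the smallest limma p in the set, Mrpl32 (chr13:14612988-14613287, minus strand) and Mrpl27 (chr11:94653541-94653840, plus strand). Capitals mark matches, on either strand, to letters bound by NRF1 (GCATGCGC), ETS factors such as GABPA (CCGGAAG), YY1 (AAGATGGC) and E-box factors such as Myc (CACGTG).
Mrps11: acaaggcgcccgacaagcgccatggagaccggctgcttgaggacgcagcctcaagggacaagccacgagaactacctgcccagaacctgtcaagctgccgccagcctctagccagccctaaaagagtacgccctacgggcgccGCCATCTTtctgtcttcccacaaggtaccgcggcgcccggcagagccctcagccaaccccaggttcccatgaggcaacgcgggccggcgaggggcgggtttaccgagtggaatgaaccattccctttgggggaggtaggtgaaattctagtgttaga
Mrpl46: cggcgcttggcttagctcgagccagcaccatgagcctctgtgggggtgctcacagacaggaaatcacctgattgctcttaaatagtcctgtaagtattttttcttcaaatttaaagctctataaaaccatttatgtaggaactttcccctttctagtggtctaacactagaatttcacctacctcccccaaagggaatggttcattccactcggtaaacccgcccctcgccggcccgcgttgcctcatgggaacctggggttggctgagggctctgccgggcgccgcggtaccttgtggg
Mrpl32: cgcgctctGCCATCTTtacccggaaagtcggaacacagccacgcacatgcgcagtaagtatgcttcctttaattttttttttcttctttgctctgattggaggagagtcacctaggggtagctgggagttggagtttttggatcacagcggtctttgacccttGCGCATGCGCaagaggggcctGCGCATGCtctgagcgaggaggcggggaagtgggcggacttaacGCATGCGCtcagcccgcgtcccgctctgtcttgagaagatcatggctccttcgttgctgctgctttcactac
Mrpl27: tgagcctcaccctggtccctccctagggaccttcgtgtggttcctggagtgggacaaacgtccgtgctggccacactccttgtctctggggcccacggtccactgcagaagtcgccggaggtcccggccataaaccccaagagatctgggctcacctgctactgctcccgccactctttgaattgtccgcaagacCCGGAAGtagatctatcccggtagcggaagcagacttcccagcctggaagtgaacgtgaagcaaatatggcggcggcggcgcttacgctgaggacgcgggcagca
The Mrpl32 window holds the NRF1 letters in both directions at 1 overlapping place and once each at 2 others, with a YY1 match near its far end, and the Mrpl27 window holds 1 ETS match. The Mrps11 window holds 1 YY1 match, and none of the 4 motifs is in the letters of the Mrpl46 window. Over all windows of the set, the YY1 letters were in 16.7%, against 4.61% of the windows of tested loci and 2.75% of all windows. The ETS letters were in 34.7%, against 18.3% and 8.86%, and the NRF1 letters in 11.1%, against 5.54% and 2.71%. The E-box was in 9.72% of windows of the set, 10.3% of those of tested loci and 7.15% of all. A GC box (GGGCGG), not capitalised above, was in 51.4% of windows of the set, below the 64.1% of tested loci and above the 35.7% of all. These matches are descriptions of letters, not of binding.

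Most of the genes were expressed at a like, middling to high level. The mean over the 4 libraries had a median of 51.4 FPKM, against 12.3 FPKM over all tested loci and 200 FPKM over 83 cytosolic ribosomal protein genes, and 59 of the 75 genes lay between 20 and 100 FPKM. The large and small subunit genes had nearly the same median, 50.8 and 52.2 FPKM. The highest was Mrpl42, at 172 FPKM in knockdown A and 154 FPKM in knockdown B and 123 and 177 FPKM in control A and B. Mrpl52, Mrpl20, Mrpl33, Mrps18c, Mrpl12 and Mrpl2 also had means of at least 100 FPKM, from 130.5 FPKM for Mrpl52 to 101 FPKM for Mrpl2. Mrpl12 encodes a stalk protein, the part of the large subunit that receives translation factors. It stood at 137 FPKM in knockdown A and 98.6 FPKM in knockdown B and 72.2 and 128 FPKM in control A and B.

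At the low end 9 genes had means under 20 FPKM. Mrps33 was the lowest, at 0 FPKM in knockdown A and 3.52 FPKM in knockdown B and 2.77 and 2.84 FPKM in control A and B, which stand for fewer than 10 fragments in each library. Mrps36, the gene reassigned to 2-oxoglutarate dehydrogenase, followed at 0 FPKM in knockdown A and 8.77 FPKM in knockdown B and 4.44 and 10.9 FPKM in control A and B. These were the only 2 of the 75 genes listed at 0 in any library, both in knockdown A, and a listed 0 may stand for an estimate that failed. Mrpl41, Mrpl19, Mrps25 and Mrpl17 came next, with means of 9.79, 10.9, 10.9 and 11.8 FPKM. Mean levels spanned 68.4-fold, but the 9th decile was 6.44 times the 1st. In the order of levels the 4-library ranges overlapped for all 74 neighbouring pairs. Neighbours in this order mostly have close means, so such overlap was likely beforehand and bears only on adjacent ranks. Across the 70 genes with a usable length, shorter transcripts tended to higher levels (Spearman's rho = -0.36, a description across genes of the same libraries, which are not independent replicates). FPKM is itself divided by transcript length, so level and length are not independent measures. All tested loci showed the same direction. Their median level was 21.9 FPKM in the shortest of 5 equal groups by length and 9.58 FPKM in the longest.

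**Figure D1:**
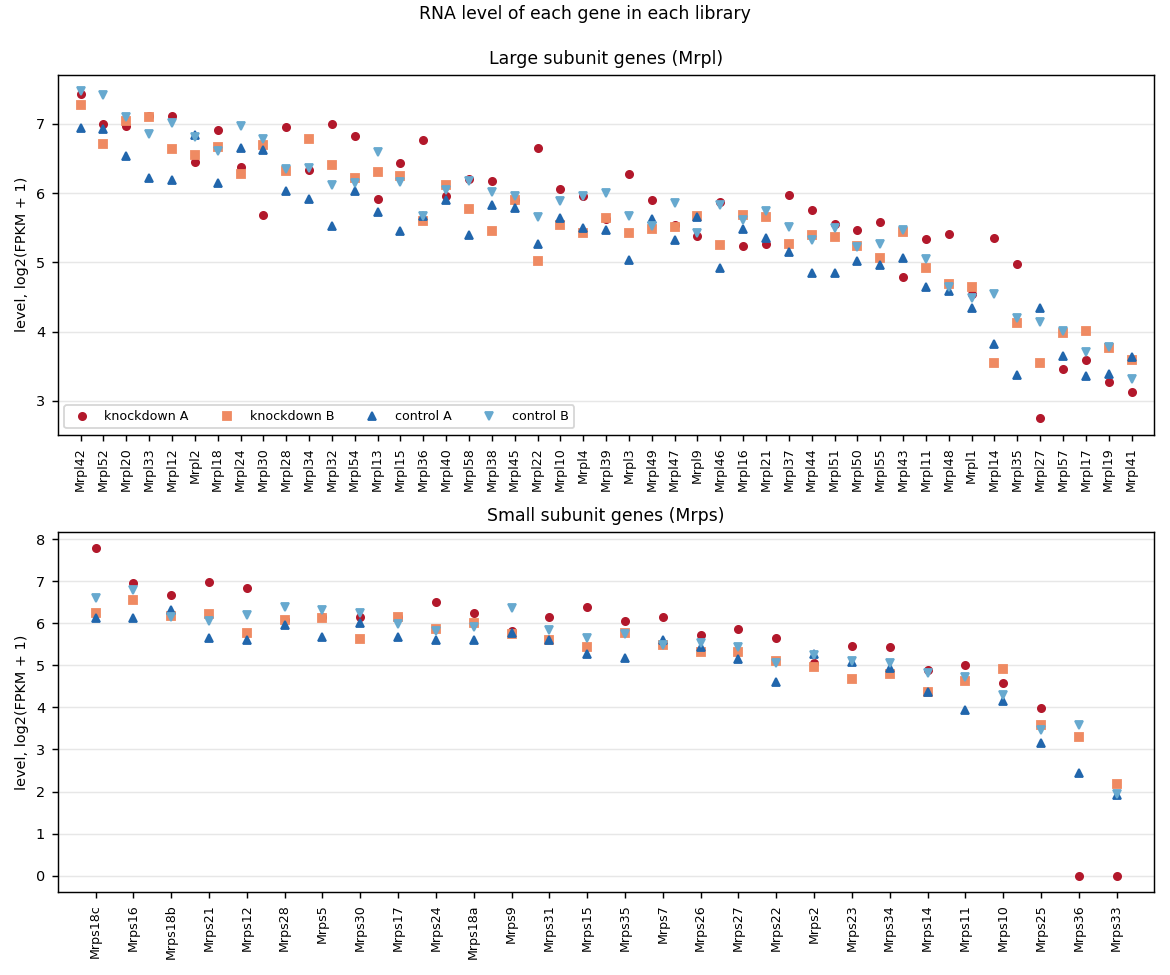
Level of each of the 75 genes in each library, on a log2(FPKM + 1) axis, in order of mean level within the large (top) and small (bottom) subunit; each symbol is 1 library. Knockdown A is often the highest and control A often the lowest symbol, while Mrps36 and Mrps33 stand at 0 in knockdown A.

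The genes varied together between libraries of the same group. The 75 genes summed to 4957 and 3920 FPKM in knockdown A and B, and to 3358 and 4383 FPKM in control A and B. Knockdown A was the highest library and control A the lowest in these sums, and the other control lay above knockdown B, so that the groups overlap. Gene by gene, knockdown A was the highest of the 4 libraries for 44 genes (58.7%, against 33.2% of tested loci). Control A was the lowest for 45 (60.0%, against 26.3%). In the highest of 5 equal groups of loci by level, which holds 50 of the 75 genes, these shares were 39.6% and 45.9%. Knockdown A exceeded knockdown B in 55 of 75 genes with a median difference of 0.36 on the log2(FPKM + 1) scale, where all tested loci had a median of -0.04. Control A lay under control B in 66 of 75 genes with a median difference of -0.38, against 0.02 over all tested loci. Both held for 50 genes (66.7%), against 26.2% of tested loci. No test was made of these differences between single libraries.

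**Figure D2:**
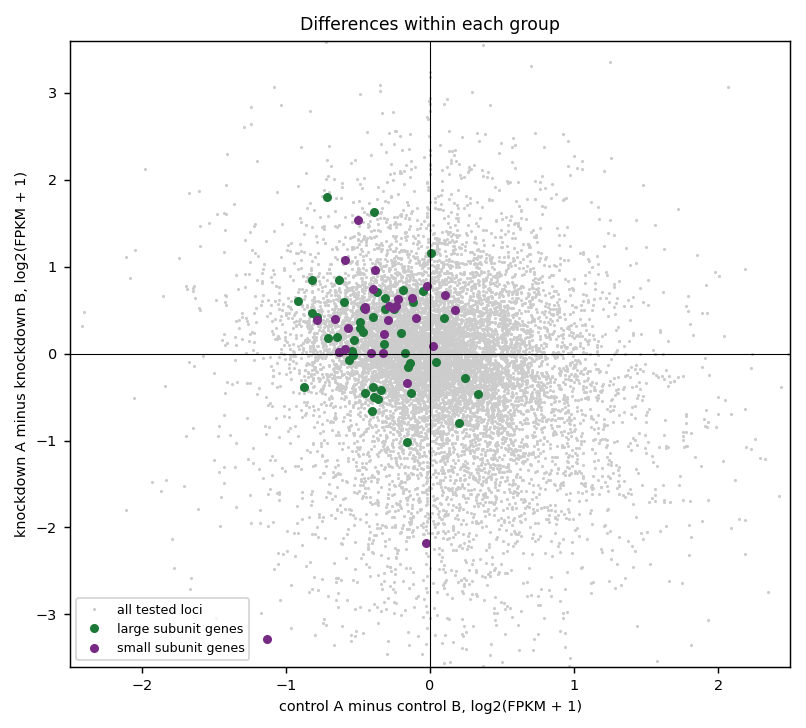
Difference between the 2 control libraries (horizontal) and between the 2 knockdown libraries (vertical), in log2(FPKM + 1); each point is a locus, grey for all tested loci, green and purple for large and small subunit genes. Of the 75 genes 50 lie in the upper left, with control A under control B and knockdown A over knockdown B; 149 tested loci, 0 of them in the set, lie outside the axes.

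The size of this spread was similar under other scalings. The medians for the 75 genes were 0.34 between knockdown A and B and -0.34 between control A and B with upper-quartile scaling, and 0.30 and -0.32 with quantile normalization. All tested loci had medians of -0.06 and 0.05 with upper-quartile scaling, and 0.02 and -0.02 with quantile normalization. Knockdown A exceeded knockdown B in 50 and 49 of the 75 genes under these scalings, in that order. Control A lay under control B in 64 and 65. The difference between knockdown libraries was 0.46 for small subunit genes, with 25 of 28 higher in knockdown A, and 0.19 for large subunit genes, with 30 of 47 higher. That between control libraries was -0.32 and -0.39, with control A lower in 25 of 28 small and 41 of 47 large subunit genes. Other highly expressed loci moved in the same direction, by less. The highest of 5 equal groups of loci by level, which holds 50 of the 75 genes, had medians of 0.06 between knockdown A and B and -0.16 between control A and B, and the 12 stem cell markers had 0.17 and -0.25. The shortest of 5 equal groups by transcript length, which holds 47 of the 70 genes with a length, had 0.0037 and -0.08. The part of level and length in the result was not tested.

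Large differences between libraries of a group were rarer in the set than over all tested loci, most of which had lower levels. The median limma standard error was 0.65 in the lowest and 0.26 in the highest of 5 equal groups of loci by level. It was 0.29 in the set, and the part of level in the shares below was not tested. At least 2-fold differences between the knockdown libraries were found in 8 of the 75 genes, a smaller share than the 21.7% of tested loci. Between the control libraries they were found in 1, Mrps36, also a smaller share than the 7.20% of tested loci. Mrps18c, a small subunit protein with 2 paralogs, held the highest single value of the set, at 220 FPKM in knockdown A with 74.9 FPKM in knockdown B, and 68.3 and 96.9 FPKM in control A and B. Mrpl22, Mrpl14, Mrpl36 and Mrps12 were likewise higher in knockdown A than in knockdown B, by 1.63, 1.80, 1.16 and 1.07 on the log2 scale. Mrpl30 went the other way, at 50.6 FPKM in knockdown A and 103 FPKM in knockdown B and 97.3 and 109 FPKM in control A and B, with Mrps36 and Mrps33, at 0 in knockdown A, making up the 8. The paralogs Mrps18a and Mrps18b were also highest in knockdown A, but by less. Knockdown A exceeded knockdown B by 0.22 and 0.50 on the log2 scale, beside 1.54 for Mrps18c. Mrps18a stood at 74.3 FPKM in knockdown A and 63.4 FPKM in knockdown B and 47.7 and 59.7 FPKM in control A and B. Mrps18b stood at 101 FPKM in knockdown A and 70.9 FPKM in knockdown B and 78.8 and 69.8 FPKM in control A and B.

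The comparison of knockdown with control cells asked whether knockdown of Kdm5b changed RNA levels. No gene of the set passed: 0 of 75 were called at a limma adjusted p under 0.05 (0.0339% of 11784 tested loci were), the smallest limma adjusted p was 0.918, and 2 had an unadjusted p under 0.05, 1 on each side (the share over tested loci was 0.967% for the higher side and 1.49% for the lower). Of the 75 log2 fold changes 51 were above 0 and 24 below, with a median of 0.19 beside -0.03 over all tested loci. Over all tested loci 47.1% were above 0, and 60.6% in the highest of 5 equal groups of loci by level. Both knockdown libraries lay above both controls in 17 genes (22.7%, against 15.0% of tested loci) and below both in 4 (5.33%, against 16.9%), and in the other 54 the groups overlapped. In the highest of 5 equal groups of loci by level the shares were 17.6% above and 12.1% below. The median 95% interval reached 0.72 log2 units to either side, and 37 genes had intervals that stayed inside 1 log2 unit (49.3%, against 32.8% of tested loci). That share was higher than in the set, at 67.7%, in the highest of 5 equal groups of loci by level and 54.2% in the next. It was 63.9% in the cytosolic ribosomal protein genes.

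The median log2 fold change of the set, 0.19, was smaller than the differences between libraries of 1 group, and it depended on which libraries were used. It was 0.08 without knockdown A and 0.35 without knockdown B, 0.05 without control A and 0.40 without control B. The number of genes above 0 was 44 and 54 without knockdown A and B, and 39 and 61 without control A and B. In 25 genes on the higher side and 5 on the lower side the sign stayed in each of these 4 fits. For the large subunit the median was 0.19 (30 of 47 above 0), and 0.08 and 0.26 without knockdown A and B, and -0.05 and 0.39 without control A and B. For the small subunit it was 0.29 (21 of 28 above 0), and 0.0041 and 0.44 without knockdown A and B, and 0.11 and 0.45 without control A and B.

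**Figure D3:**
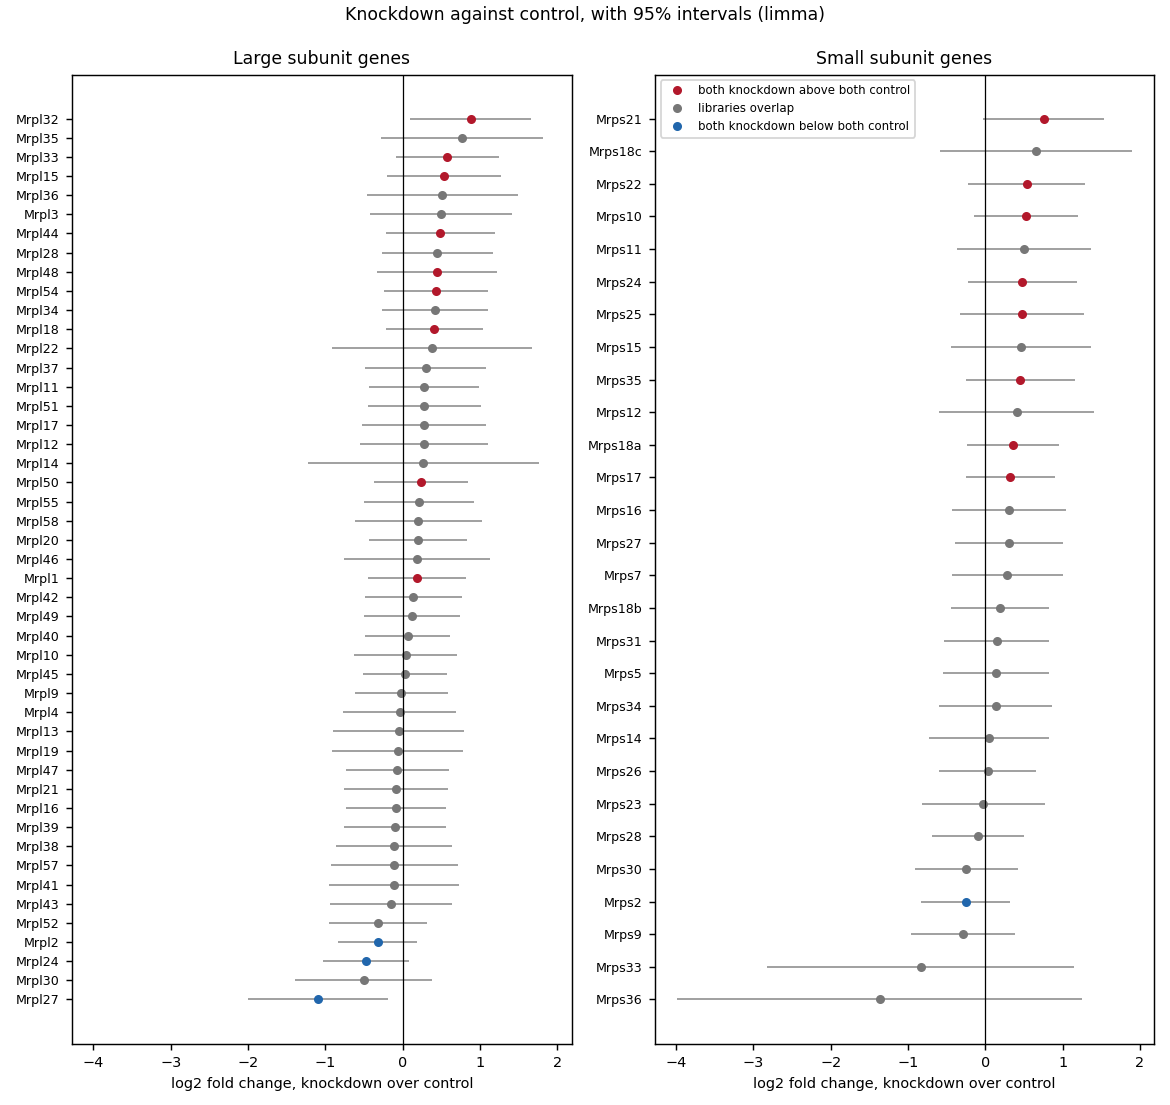
Log2 fold change of knockdown over control (points) with 95% intervals (lines) from limma for each large (left) and small (right) subunit gene, in order; red and blue points mark genes whose knockdown libraries lie both above or both below the controls. The intervals of all genes but Mrpl32 and Mrpl27 cross 0.

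On the higher side the smallest p belonged to Mrpl32 (mm9 chr13:14702567-14705304), a large subunit protein whose maturation depends on a protease of the inner membrane. It stood at 127 FPKM in knockdown A and 83.7 FPKM in knockdown B, against 45.1 and 68.6 FPKM in control A and B. Both knockdown libraries were higher, with a log2 fold change of 0.88 (standard error 0.32, 95% interval 0.10 to 1.66, limma unadjusted p = 0.0334), and values between 0.58 and 1.18 when 1 library was left out. Its neighbour Psma2, a proteasome subunit 204 bases away, stood at 245 FPKM in knockdown A and 228 FPKM in knockdown B and at 139 and 260 FPKM in control A and B, so that its groups overlapped. Mrps21, a small subunit protein, stood at 125 FPKM in knockdown A and 74.1 FPKM in knockdown B, against 49.4 and 65.1 FPKM in control A and B (log2 fold change 0.75, standard error 0.32). Mrpl33 stood at 138 FPKM in knockdown A and 137 FPKM in knockdown B, against 73.4 and 114 FPKM in control A and B (0.58, standard error 0.27). In both genes the knockdown libraries lay above the controls, and control A was the lowest library.

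Mrps10 differed from this pattern in that knockdown B was the highest library: it stood at 22.9 FPKM in knockdown A and 29.3 FPKM in knockdown B, against 16.7 and 18.8 FPKM in control A and B (log2 fold change 0.52, standard error 0.28). Mrpl15, Mrps22, Mrpl44, Mrps24 and Mrpl18 also had both knockdown libraries above both controls, with log2 fold changes of 0.53, 0.54, 0.48, 0.48 and 0.41. Mrps22 and Mrpl44 are both genes in which human mutations cause mitochondrial disease. Mrpl44 averaged 46.9 ± 8.44 FPKM in knockdown and 33.5 ± 8.09 FPKM in control libraries (SD, n = 2 each). Mrps22 averaged 41.1 ± 11.0 FPKM in knockdown and 27.9 ± 6.36 FPKM in control libraries (SD, n = 2 each). Mrpl35, with the second largest fold change of the large subunit genes at 0.76 (standard error 0.43), overlapped: it stood at 30.4 FPKM in knockdown A and 16.5 FPKM in knockdown B and 9.38 and 17.3 FPKM in control A and B.

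On the lower side the smallest p belonged to Mrpl27 (mm9 chr11:94515104-94521401), a protein near the catalytic centre of the large subunit. It stood at 5.71 FPKM in knockdown A and 10.7 FPKM in knockdown B, against 19.2 and 16.6 FPKM in control A and B. Both knockdown libraries were lower, with a log2 fold change of -1.09 (standard error 0.37, 95% interval -2.00 to -0.19, limma unadjusted p = 0.0256), and values between -1.49 and -0.70 when 1 library was left out. These levels stand for an estimated 10.4 and 25.1 fragments in knockdown A and B and 47.1 and 39.7 in control A and B. Eme1, a subunit of a DNA repair endonuclease whose start lies 36 bases from that of Mrpl27, stood at 31.3 FPKM in knockdown A and 33.0 FPKM in knockdown B and 24.0 and 35.2 FPKM in control A and B, with a log2 fold change of 0.14.

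Mrpl24, Mrpl2 and Mrps2 were the other 3 genes with both knockdown libraries below both controls. Mrpl24 stood at 82.4 FPKM in knockdown A and 76.4 FPKM in knockdown B, against 99.1 and 124 FPKM in control A and B (log2 fold change -0.48, standard error 0.23). Mrpl2, a protein of the large subunit core, stood at 86.8 FPKM in knockdown A and 92.7 FPKM in knockdown B, against 114 and 111 FPKM in control A and B (-0.32, standard error 0.21). Mrps2 stood at 32.0 FPKM in knockdown A and 30.0 FPKM in knockdown B, against 37.6 and 37.0 FPKM in control A and B (-0.26, standard error 0.24). In Mrpl2 and Mrps2 the libraries of a group lay close together and control A was not the lower control. The other genes on the lower side among the 10 smallest p overlapped between groups: Mrpl30 (-0.51), Mrps36 (-1.36, standard error 1.07), Mrpl52 (-0.32), Mrps9 (-0.29), Mrps33 (-0.84, standard error 0.81) and Mrps30 (-0.25). Of these, Mrpl30, Mrps36 and Mrps33 stood above 0 without knockdown A, Mrps30 without knockdown B and Mrps9 without control B. Mrpl24 shares its interval with Rrnad1, and 7 other genes of the set share one with another locus (10.7%, against 19.5% of tested loci); without known use of strand in counting, such genes may share fragments.

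Genes with close starts were also set side by side. Mrpl46 stood at 57.3 FPKM in knockdown A and 37.2 FPKM in knockdown B and 29.2 and 55.9 FPKM in control A and B. Mrps11, 41 bases away, stood at 31.2 FPKM in knockdown A and 23.7 FPKM in knockdown B and 14.2 and 25.3 FPKM in control A and B. The 2 genes had the same order of libraries, with knockdown A highest and control A lowest, and log2 fold changes of 0.19 and 0.50. Of the 27 genes with a neighbour, 24 had one that was tested, and member and neighbour had the same sign in 14 of 24, a count in which the Mrpl46 and Mrps11 pair enters from both sides. Helq, a DNA helicase 158 bases from Mrps18c, had a log2 fold change of 0.68 beside 0.65 for Mrps18c. Hira, a histone chaperone gene 112 bases from Mrpl40, had 0.71 beside 0.07, and Sars2 had -0.40 beside 0.40 for Mrps12. None of the tested neighbours passed limma over all loci.

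The wider apparatus of mitochondrial translation was compared in the same fit, and 0 genes of these lists passed with all 4 libraries. The 5 subunits with other names had 1 fold change above and 4 below 0, with a median of -0.02 (0.03 and -0.07 without knockdown A and B, -0.31 and 0.21 without control A and B). Aurkaip1 stood at 38.7 FPKM in knockdown A and 51.3 FPKM in knockdown B, against 55.4 and 76.9 FPKM in control A and B (log2 fold change -0.54, standard error 0.28). Dap3, a GTP-binding protein of the small subunit, had 0.07. In all 5 control A lay under control B, with a median of -0.46.

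Of 28 tested factors of ribosome assembly and ribosomal RNA modification, 17 were above and 11 below 0 (median 0.08; 0.14 and 0.07 without knockdown A and B, -0.02 and 0.26 without control A and B). The rRNA methyltransferase Mrm1 stood at 18.1 FPKM in knockdown A and 9.29 FPKM in knockdown B, against 6.85 and 6.61 FPKM in control A and B (log2 fold change 0.86, standard error 0.40). Malsu1, an assembly factor of the large subunit, stood at 46.0 FPKM in knockdown A and 29.0 FPKM in knockdown B, against 15.5 and 27.7 FPKM in control A and B (0.79, standard error 0.38). Mrm2, another rRNA methyltransferase, overlapped between groups, at 13.1 FPKM in knockdown A and 6.43 FPKM in knockdown B and 3.09 and 8.20 FPKM in control A and B (0.74, standard error 0.54). Trub2, a pseudouridine synthase, stood at 20.0 FPKM in knockdown A and 24.9 FPKM in knockdown B, against 54.3 and 25.0 FPKM in control A and B (-0.70, standard error 0.40), so that control A alone stood apart. Of 18 mitochondrial translation factors 12 were above 0 (median 0.20; 0.06 and 0.31 without knockdown A and B, -0.05 and 0.31 without control A and B). Mrrf, the ribosome recycling factor, had -0.80 and the formyltransferase Mtfmt 0.65, while the elongation factor Tufm stood at 26.8 FPKM in knockdown A and 13.7 FPKM in knockdown B and 10.6 and 15.1 FPKM in control A and B (0.56, standard error 0.40).

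Of 16 tested genes that transcribe mitochondrial DNA or regulate nuclear mitochondrial genes, 6 were above 0 (median -0.10, between -0.21 without knockdown B and -0.02 without control A when 1 library was left out). Polrmt, the mitochondrial RNA polymerase, stood at 11.0 FPKM in knockdown A and 15.4 FPKM in knockdown B and 15.6 and 13.2 FPKM in control A and B. Tfam, which packages mitochondrial DNA, stood at 19.0 FPKM in knockdown A and 19.6 FPKM in knockdown B, against 22.2 and 29.9 FPKM in control A and B (log2 fold change -0.40, standard error 0.28). The transcription factors Nrf1 and Gabpa, whose letters were searched in the promoters, differed by -0.13 (standard error 0.24) and by -0.06 (standard error 0.28) on the log2 scale. Mterf1b had the largest change of the list, 1.79 (standard error 0.69, limma unadjusted p = 0.0403), at 17.9 FPKM in knockdown A and 3.83 FPKM in knockdown B against 1.74 and 1.78 FPKM in control A and B, while its near-copy Mterf1a stood at 0 FPKM in knockdown A and 6.30 FPKM in knockdown B and 4.11 and 5.01 FPKM in control A and B. Without knockdown B the log2 fold change of Mterf1b was 2.77 and the gene passed limma (adjusted p = 0.046), and without knockdown A it was 0.80; over all alternatives the limma adjusted p of Mterf1b ranged from 0.046 to 1. Fragments may be split between these 2 copies, so both values are uncertain. Ppargc1a was listed at 0 in all 4 libraries.

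The cytosolic ribosomal protein genes, the set most alike in kind, had within-group medians of the same sign and smaller size. Knockdown A was the highest library in 53.0% and control A the lowest in 61.4% of them, beside 58.7% and 60.0% of the mitochondrial set. The median was 0.13 between knockdown A and B and -0.20 between control A and B. Of 83 genes 64 had a log2 fold change above 0, with a median of 0.17 (0.11 and 0.24 without knockdown A and B, 0.01 and 0.27 without control A and B), and 0 passed limma. Both knockdown libraries lay above both controls in 20 of them and below both in 4, shares of 24.1% and 4.82%. Whether the 2 kinds of ribosomal protein genes differ in any of this was not tested.

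**Figure D4:**
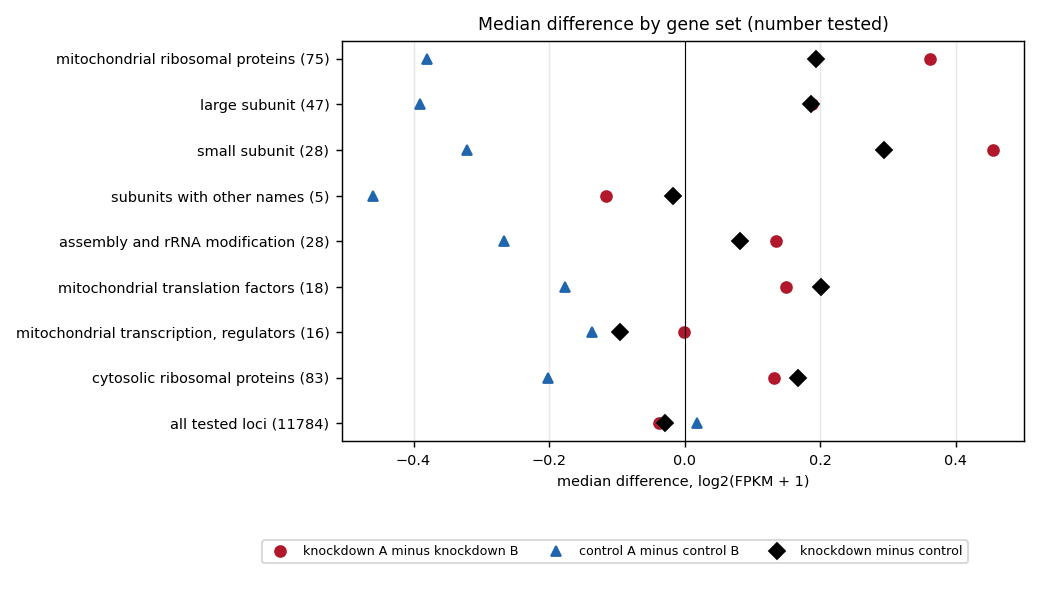
Median difference in log2(FPKM + 1) for each gene set, with the number of genes tested in brackets: knockdown A minus knockdown B (red), control A minus control B (blue) and knockdown minus control (black). For the 75 genes the within-group medians of 0.36 and -0.38 lie farther from 0 than the group median of 0.19.

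The rows left out of the set were also read. Mrps6 shares a locus with Slc5a3, a sodium/myo-inositol cotransporter gene, and that row stood at 64.0 FPKM in knockdown A and 21.6 FPKM in knockdown B and 18.6 and 19.2 FPKM in control A and B. Mrpl53 shares a locus with Ccdc142, and that row stood at 0.10 FPKM in knockdown A and 41.7 FPKM in knockdown B and 37.5 and 49.2 FPKM in control A and B. In both rows knockdown A alone stood away from the other 3 libraries, in opposite directions. Mrpl23, the only single-symbol row under 1 FPKM, was listed at 0 in both knockdown libraries and in control A, and at 1.21 FPKM in control B, an estimated 2.57 fragments. Near the threshold on the other side stood Mrps33, with its mean of 2.28 FPKM.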

How the data were processed

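Directional libraries, marked with dUTP, were made from RNA without ribosomal RNA and cut to 300 bp, per the labels' protocols. The authors deposited 1 table of FPKM per locus and library; Cufflinks, Cuffdiff and the mm9 build are named per the submitters' processing notes, while use of strand in counting is not given in the sources used here.

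RefSeq identifiers were matched to GRCm38.p6 symbols; 23241 of 23697 loci had 1 symbol, 189 several and 267 none. GENCODE M21 gave strands and transcript lengths, left out for 5 genes of the set where longer than the deposited locus. Depth was estimated from steps in low values, of which 77.4% to 79.9% came within 0.15 of a whole fragment after 200 bases were taken off each length. Fragment numbers are thus estimates, and no counting interval was made.

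Tests used log2(FPKM + 1), which understates changes of low genes, over 11784 loci averaging 1 FPKM or more. limma 3.58.1 (R 4.3.3, group alone, eBayes with trend, two-sided) was first run on simulated data with 200 loci changed. That run checked the code only, since its changes and noise were set and not taken from these libraries. For the deposited values, p-values were adjusted over all loci by Benjamini-Hochberg at 0.05. Members were named with values if among the 6 highest or lowest levels or the 10 smallest p on each side, with the Mrps18 paralogs, Mrpl12 and Mrps36; of each list, the 2 to 4 largest changes, except 1 gene not reported here, and Polrmt, Tfam, Nrf1 and Gabpa. Other genes, such as neighbours and those differing between knockdown libraries, were named after their values were seen. The genes and lists were chosen with earlier results of these data known. Alternatives were other pseudocounts, filters and scalings, eBayes without trend, the replicate letter as a block and each library left out.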

Additional observations from a re-analysis of the deposited data

How the results depend on the processing

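The number of called genes in the set was 0 under every alternative run. The count of called loci over the whole table was 4, against 1 without a filter on low values, 2 when eBayes had no trend and 7 under the replicate block. It was 13 and 134 without knockdown A and B, and 0 without either control; the cause was not tested. The letters are not known to pair the libraries: the differences between A and B in the 2 groups correlated at -0.07 across tested loci, and the block left the median of the set at 0.19 with 0 genes called. Pseudocounts of 0.1 and 0.01, filters, upper-quartile scaling and quantile normalization kept the median of the set between 0.18 and 0.20. With 1 library left out it ranged from 0.05 to 0.40, from -0.0452 to 0.39 for the large and from 0.0041 to 0.45 for the small subunit. In these fits the lone library is assumed to vary like the others. Of the 37 genes of the set described with their own values, 1 changed sign under the other 8 alternatives (7 for Mrps33, which is under the filter of 5 FPKM): Mrpl19, at 0.0178 with quantile normalization. When a library was left out 18 changed sign, with ranges of -1.01 to 0.00061 for Mrpl30, -3.01 to 0.28 for Mrps36, -0.59 to 0.0034 for Mrps9, -1.93 to 0.25 for Mrps33, -0.51 to 0.0167 for Mrps30, -0.0646 to 0.44 for Mrps18b, -0.117 to 1.42 for Mrps18c, -0.139 to 0.68 for Mrpl12, -0.126 to 0.40 for Mrpl42, -0.0864 to 0.48 for Mrpl20, -0.31 to 0.185 for Mrpl19, -0.34 to 0.119 for Mrpl41, -0.435 to 1.19 for Mrpl22, -0.633 to 1.17 for Mrpl14, -0.0673 to 1.09 for Mrpl36, -0.133 to 0.94 for Mrps12, -0.271 to 0.64 for Mrpl46 and -0.0112 to 0.14 for Mrpl40. With 2 libraries a group a typical interval of the set reached 0.72 log2 units before adjustment, and the adjusted threshold asks for far more: Kdm5b, at -2.14, did not pass limma.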
